A study of Homo sapiens with 12 samples.

Results

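The 40 genes described here encode proteins that carry human cells through the G2 phase and mitosis. They were taken as a list of names, and each was read from the brightest of its probes on an Illumina expression array, as the log2 signal the authors deposited. Every one of the 40 was among the 11564 genes tested, of 20044 gene symbols on the array, and every one was above background on all 12 arrays. The arrays carry RNA labelled as SKBR-3, a human breast cancer cell line in which the receptor kinase gene ERBB2 is amplified, in 6 groups of 2 arrays. The groups are untreated cells and cells given 1 µM Y15, 1 µM PF04554878, 5 µM lapatinib, or 5 µM lapatinib together with 1 µM of either Y15 or PF04554878, each for 24 h. Y15 and PF04554878 (defactinib) inhibit focal adhesion kinase (FAK), a kinase of cell attachment sites, and lapatinib inhibits the receptor kinases EGFR and HER2. No vehicle is named for the untreated cells. Nothing in the labels says that replicates came from different cultures. The p-values rest on a spread between replicates that is pooled over all 6 groups and drawn toward that of other genes. That spread could be technical variation.

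Cells enter mitosis when cyclin B accumulates and its kinase CDK1 is freed from inhibitory phosphates by CDC25 phosphatases. Aurora and Polo-like kinases then build the spindle with kinesin motors, the spindle assembly checkpoint holds back the anaphase-promoting complex until chromosomes are attached, and separase finally splits the sister chromatids. Most of these genes are transcribed in late S and G2 phase, under the MuvB complex with B-MYB and FOXM1, and are repressed in resting cells by the DREAM complex, so their summed RNA in a tumour sample is widely read as a proliferation signature. In bulk RNA, fewer cells in G2 or mitosis cannot be told apart from less RNA per such cell.

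The 12 arrays fell into 3 sets that cross the treatment labels: untreated with Y15, lapatinib with Y15 plus lapatinib, and PF04554878 alone with its combination with lapatinib. Across all genes tested, Pearson's r was 0.987 to 0.995 between replicates, 0.983 to 0.988 between the groups of a set, and 0.873 to 0.938 between sets. Over the 40 genes, the root mean square difference between 2 arrays was 0.139 to 0.198 log2 units for replicates (median 0.146), 0.177 to 0.401 within a set (median 0.309) and 0.433 to 0.780 between sets (median 0.584). ESR1, the estrogen receptor, which SKBR-3 cells are known to lack, was above background on 12 of 12 arrays, with group means of 9.85 to 10.44. TFF1, an estrogen-responsive gene, had group means of 12.63 to 13.73 except on the arrays with lapatinib (6.48) and with Y15 plus lapatinib (6.63), which lay at background. Other estrogen-responsive genes did not follow it. PGR went the other way, with group means of 10.55 with lapatinib, 10.06 with Y15 plus lapatinib and 7.83 to 8.19 elsewhere. GREB1 had group means of 8.81 to 10.10 and was above background on all 12 arrays. The ERBB2 probe had group means of 8.34 to 9.35. The ESR1 level goes against the labelled line, so each group is called here by its label alone, and in a comparison between sets the treatment cannot be told apart from whatever else separates the sets. The 3 comparisons inside a set share no array with one another. Of the markers of other cell types, 2 of 8 fibroblast markers (COL1A1 and LUM), 0 of 6 endothelial markers and 1 of 7 leukocyte markers (CD68) passed the filter on dim probes, whose cutoff was 6.80, and the mean of each list stayed within 6.60 to 6.72, 6.49 to 6.57 and 6.71 to 6.84 over the 12 arrays. CD68 and COL1A1 were above background on all 12 arrays, and CD68 differed between the sets, with group means of 8.02 untreated, 8.15 under Y15, 7.40 under lapatinib, 7.71 under Y15 plus lapatinib, 8.21 under PF04554878 and 8.18 under PF04554878 plus lapatinib. The group means of COL1A1 ran from 6.88 untreated to 7.31 under PF04554878 plus lapatinib. The part of these markers in the results was not tested.

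The promoters of 6 of the genes are shown because these genes are among those with the largest changes in each direction between the sets. They are RefSeq sequences of build GRCh38.p14, 250 bases before to 50 bases after the annotated start, written 5′ to 3′ on the strand of the gene. Capitals mark the 2 elements through which DREAM and MuvB and the factor NF-Y are known to act: the cell cycle homology region, searched as TTTGAA or TTCGAA, and the CCAAT box, searched as CCAAT, each on both strands. CDK1 (chr10:60778228-60778527, plus strand), NUSAP1 (chr15:41332631-41332930, plus strand) and CCNB2 (chr15:59104896-59105195, plus strand) were higher on the arrays labelled lapatinib, and BUB1 (chr2:110678014-110678313, minus strand), CDC25B (chr20:3796060-3796359, plus strand) and CENPE (chr4:103198294-103198593, minus strand) were lower there. Where a gene has several annotated starts (2 for CDK1, 4 for CDC25B), the start with the most matches is shown.
CDK1: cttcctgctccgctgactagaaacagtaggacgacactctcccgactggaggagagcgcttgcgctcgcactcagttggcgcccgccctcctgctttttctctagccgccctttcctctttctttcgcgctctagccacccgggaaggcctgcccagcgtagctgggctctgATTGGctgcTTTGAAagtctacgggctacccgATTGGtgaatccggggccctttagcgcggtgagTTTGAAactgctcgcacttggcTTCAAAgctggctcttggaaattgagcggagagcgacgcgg
NUSAP1: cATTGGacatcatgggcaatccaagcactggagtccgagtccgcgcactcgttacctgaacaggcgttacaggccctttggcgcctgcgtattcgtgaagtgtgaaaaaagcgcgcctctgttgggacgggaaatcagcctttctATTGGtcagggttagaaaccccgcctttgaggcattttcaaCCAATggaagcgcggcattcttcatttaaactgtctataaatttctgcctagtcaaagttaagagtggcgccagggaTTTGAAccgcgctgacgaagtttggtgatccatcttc
CCNB2: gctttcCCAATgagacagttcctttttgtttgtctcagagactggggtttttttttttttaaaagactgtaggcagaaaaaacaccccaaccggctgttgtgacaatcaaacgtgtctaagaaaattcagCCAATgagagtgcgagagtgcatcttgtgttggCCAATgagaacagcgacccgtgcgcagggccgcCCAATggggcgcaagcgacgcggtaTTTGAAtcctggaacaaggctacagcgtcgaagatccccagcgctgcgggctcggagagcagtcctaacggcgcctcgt
BUB1: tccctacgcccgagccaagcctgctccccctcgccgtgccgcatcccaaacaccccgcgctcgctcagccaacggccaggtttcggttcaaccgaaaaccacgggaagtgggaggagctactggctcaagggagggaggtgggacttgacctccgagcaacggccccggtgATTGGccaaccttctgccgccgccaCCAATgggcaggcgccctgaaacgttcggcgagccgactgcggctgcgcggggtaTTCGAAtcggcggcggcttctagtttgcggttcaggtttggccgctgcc
CDC25B: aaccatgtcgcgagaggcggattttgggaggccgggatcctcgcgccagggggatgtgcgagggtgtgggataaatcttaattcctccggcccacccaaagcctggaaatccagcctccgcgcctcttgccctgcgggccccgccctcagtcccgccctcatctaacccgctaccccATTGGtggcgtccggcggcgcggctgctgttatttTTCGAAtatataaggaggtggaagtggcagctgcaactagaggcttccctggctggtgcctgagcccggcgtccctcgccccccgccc
CENPE: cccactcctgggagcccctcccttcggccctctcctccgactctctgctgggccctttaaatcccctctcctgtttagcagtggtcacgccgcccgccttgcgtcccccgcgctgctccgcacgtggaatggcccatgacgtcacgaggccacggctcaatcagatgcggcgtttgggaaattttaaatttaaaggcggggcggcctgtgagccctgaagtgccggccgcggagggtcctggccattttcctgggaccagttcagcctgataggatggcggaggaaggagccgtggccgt

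The CDK1 window held 3 matches to the cell cycle homology region and 2 CCAAT boxes, CCNB2 held 1 and 4, NUSAP1 1 and 3, BUB1 1 and 2, and CDC25B 1 and 1. The CENPE window held neither set of letters. Of the 40 genes, 34 had a promoter entry, with 44 annotated starts. A cell cycle homology region was present at 29 of these 44 starts (65.9%), against 16.4% of the 35116 promoters of the same length in the RefSeq table. A CCAAT box was present at 33 of the 44 (75.0%), against 34.6% of all promoters. The 2 kinds of match overlapped in 2 of the 44 windows. Counted per gene, at any of its starts, 26 of the 34 (76.5%) held the cell cycle homology region, against 19.5% of 27305 genes. A CCAAT box was held by 28 (82.4%), against 39.7%. Both elements were found among genes that moved either way. Of the 16 genes with an entry that rose with lapatinib, 12 held the cell cycle homology region and 13 a CCAAT box, and of the 8 that fell, 6 and 6 did. Of the 10 that passed the test in neither direction, 8 and 9 did.

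**Figure D1:**
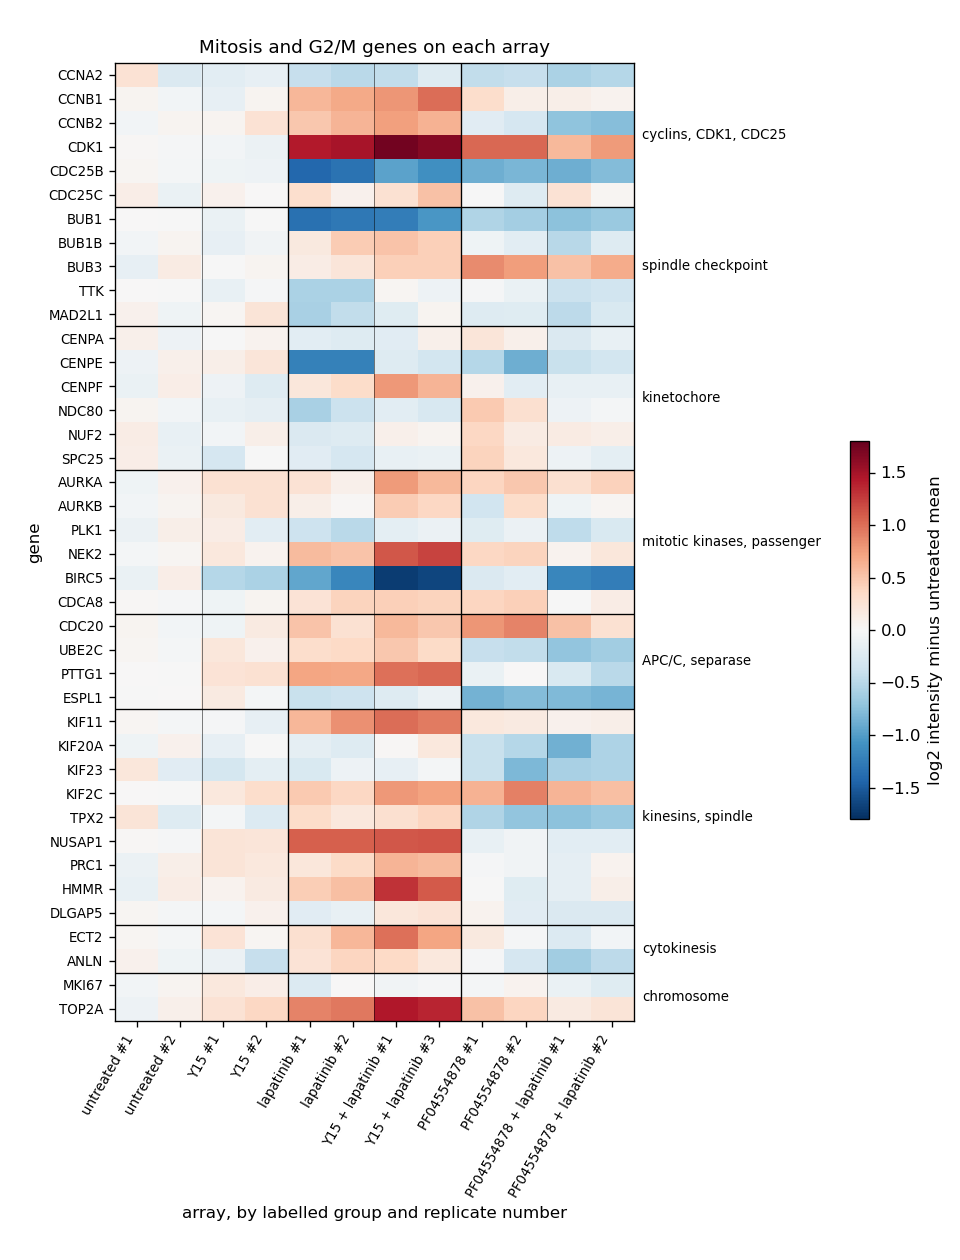
Log2 signal of each of the 40 genes (rows, ordered by role) on each of the 12 arrays (columns, by group), minus the mean of the 2 untreated arrays, as colour. The 4 arrays with lapatinib alone or combined with Y15 carry large rises, such as CDK1, and large falls, such as BUB1 and CDC25B, and the replicates of a group look alike.

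The 40 genes did not move as a block. Between the arrays labelled lapatinib and untreated, 17 of the 40 rose and 10 fell (limma with Benjamini-Hochberg adjustment over all 11564 genes, threshold 0.05), with a median log2 change of 0.19. Over all genes tested, 27.9% rose and 28.0% fell there, so 17 rises are a larger share than the background and 10 falls are near it. With Y15 plus lapatinib, 22 rose and 5 fell against untreated (median 0.41; all genes 27.4% and 27.1%). With PF04554878 plus lapatinib the balance was the other way: 5 rose and 18 fell (median -0.18; all genes 23.7% and 22.6%). With PF04554878 alone, 9 rose and 10 fell (median -0.06; all genes 23.7% and 21.6%), which is close to the background in both directions. With Y15 alone, 0 rose and 1 fell (median 0.02; all genes 2.94% and 2.50%), and at an unadjusted p under 0.05 limma gave 5 higher and 1 lower. These 5 comparisons share the 2 untreated arrays. The median over all genes was between -0.01 and 0.01 in each. The deposited arrays were already normalized to nearly the same distribution of values, so such a median was largely fixed beforehand. Below, a change given with ± is a log2 change with limma's standard error, n = 2 arrays per group, and an adjusted p given without an array is from the fit that leaves that array out.

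**Figure D2:**
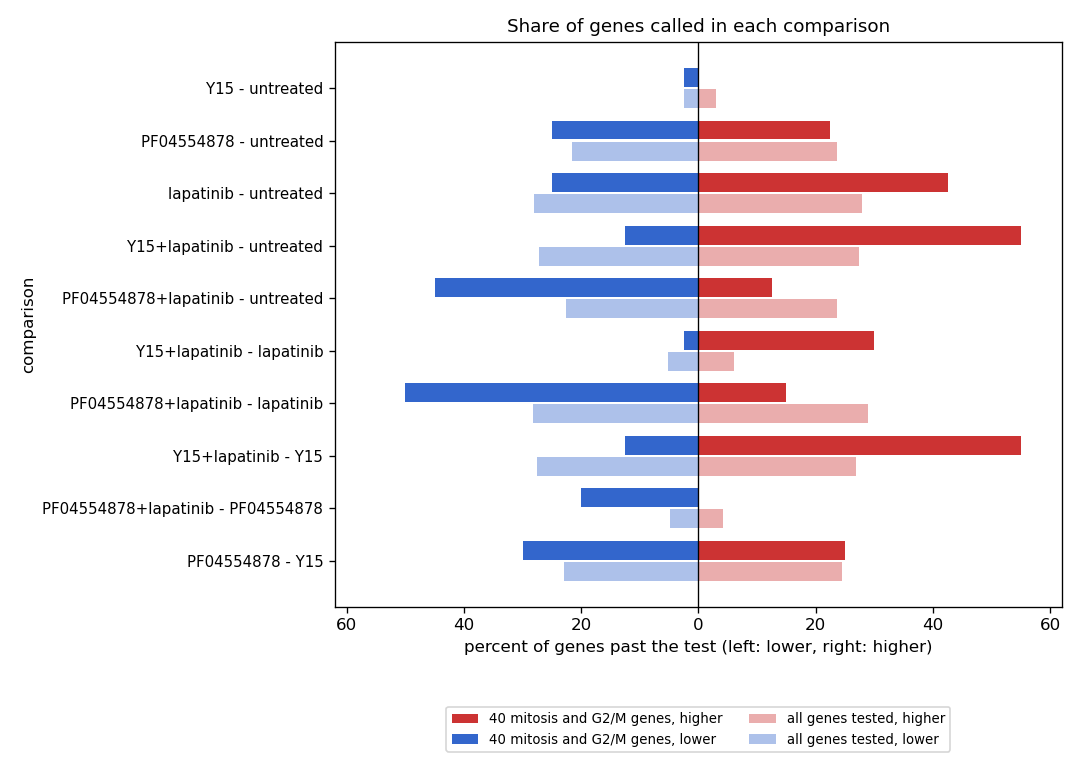
Percent of genes that rose or fell past the threshold in each of the 10 pairwise comparisons, for the 40 mitotic genes and for all 11564 genes tested. Against untreated, the 40 genes exceed the background for rises with lapatinib (17 of 40) and with Y15 plus lapatinib (22 of 40). They exceed it for falls with PF04554878 plus lapatinib (18 of 40). Other comparisons exceed it too. Inside a set these are rises with Y15 added to lapatinib (12 of 40) and falls with lapatinib added to PF04554878 (8 of 40).

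The highest group mean of a gene was with Y15 plus lapatinib for 21 of the 40 genes, and with PF04554878 plus lapatinib for 0. The lowest group mean was with PF04554878 plus lapatinib for 15 genes and with lapatinib alone for 10. The same counts were not made over all genes, so they cannot be read as particular to the 40 genes. Replicates differed by a median of 0.09 to 0.12 log2 units per group. The widest gaps between replicates were those of AURKB with PF04554878 (8.62 and 9.28) and of CCNA2 on the untreated arrays (10.69 and 10.16).

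The mitotic cyclins, CDK1 and its activating phosphatases moved apart from each other. CDK1, the kinase that drives entry into mitosis, stood at 8.57 and 8.53 on the untreated arrays, 8.51 and 8.45 under Y15, 9.97 and 10.03 under lapatinib, 10.29 and 10.21 under Y15 plus lapatinib, 9.59 and 9.58 under PF04554878, and 9.14 and 9.31 under PF04554878 plus lapatinib. All 8 arrays with lapatinib or PF04554878 lay above the 4 others, and no group with lapatinib or PF04554878 overlapped the untreated arrays. CDK1 rose 2.74-fold with lapatinib (log2 change 1.45 ± 0.09, adjusted p = 2.03e-09), 3.24-fold with Y15 plus lapatinib (log2 change 1.70 ± 0.09, adjusted p = 3.31e-10) and 2.05-fold with PF04554878 (log2 change 1.03 ± 0.09, adjusted p = 2.03e-07). It rose 1.6-fold with PF04554878 plus lapatinib (log2 change 0.68 ± 0.09, adjusted p = 1.49e-05), and its second probe gave 0.30 there (adjusted p = 0.0526). CDC25B, a phosphatase that activates cyclin-CDK complexes at the centrosome, stood at 11.24 and 11.18 on the untreated arrays, 11.13 and 11.11 under Y15, 9.79 and 9.88 under lapatinib, 10.24 and 10.10 under Y15 plus lapatinib, 10.33 and 10.38 under PF04554878, and 10.32 and 10.43 under PF04554878 plus lapatinib. It was lower on every array of the 4 groups with lapatinib or PF04554878 than on any untreated or Y15 array. The log2 changes against untreated were -1.37 ± 0.09 (adjusted p = 4.07e-09) with lapatinib, -0.85 ± 0.09 (adjusted p = 1.66e-06) with PF04554878, -1.04 ± 0.09 (adjusted p = 9.96e-08) with Y15 plus lapatinib and -0.83 ± 0.09 (adjusted p = 1.95e-06) with PF04554878 plus lapatinib.

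The B cyclins, which bind and activate CDK1, rose only on the arrays with lapatinib alone or combined with Y15, among the 5 comparisons against untreated. CCNB2 stood at 10.26 and 10.36 on the untreated arrays, 10.36 and 10.57 under Y15, 10.80 and 10.92 under lapatinib, 11.04 and 10.93 under Y15 plus lapatinib, 10.11 and 10.01 under PF04554878, and 9.58 and 9.54 under PF04554878 plus lapatinib. The 4 arrays with lapatinib alone or combined with Y15 were the highest and the 2 with PF04554878 plus lapatinib the lowest, with no overlap with untreated. Its log2 change was 0.55 ± 0.10 (adjusted p = 0.000195) with lapatinib, 0.68 ± 0.10 (adjusted p = 2.63e-05) with Y15 plus lapatinib and -0.75 ± 0.10 (adjusted p = 1.33e-05) with PF04554878 plus lapatinib. CCNB1 changed by 0.65 ± 0.11 (adjusted p = 8.78e-05) with lapatinib and 0.90 ± 0.11 (adjusted p = 3.22e-06) with Y15 plus lapatinib. CCNA2, the cyclin of S and early G2 phase, was lower than on the untreated arrays in all 4 groups with lapatinib or PF04554878, with log2 changes of -0.45 for lapatinib, -0.43 for PF04554878, -0.34 for Y15 plus lapatinib and -0.54 for PF04554878 plus lapatinib. The array values with Y15 plus lapatinib overlapped those of the untreated arrays, and the untreated arrays themselves lay far apart. Without the first untreated array the adjusted p for CCNA2 was 0.181 with lapatinib, 0.258 with PF04554878, 0.608 with Y15 plus lapatinib and 0.0497 with PF04554878 plus lapatinib. Leaving out single treated arrays also removed the CCNA2 call, at 0.0612 without lapatinib array 2, 0.0686 and 0.0541 without PF04554878 array 1 or 2, and 0.26 without Y15 plus lapatinib array 1. CDC25C, the phosphatase that frees CDK1 of its inhibitory phosphates, has several probes above background, which gave different calls. The brightest changed by 0.40 ± 0.13 (adjusted p = 0.0139) with Y15 plus lapatinib (adjusted p = 0.112 without untreated array 2 and 0.153 without Y15 plus lapatinib array 3), where the others gave 0.04 and 0.03 and did not pass. The others fell with PF04554878 (-0.43 and -0.41) and with PF04554878 plus lapatinib (-0.56 and -0.34), where the brightest gave -0.12 and 0.14 and did not pass.

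**Figure D3:**
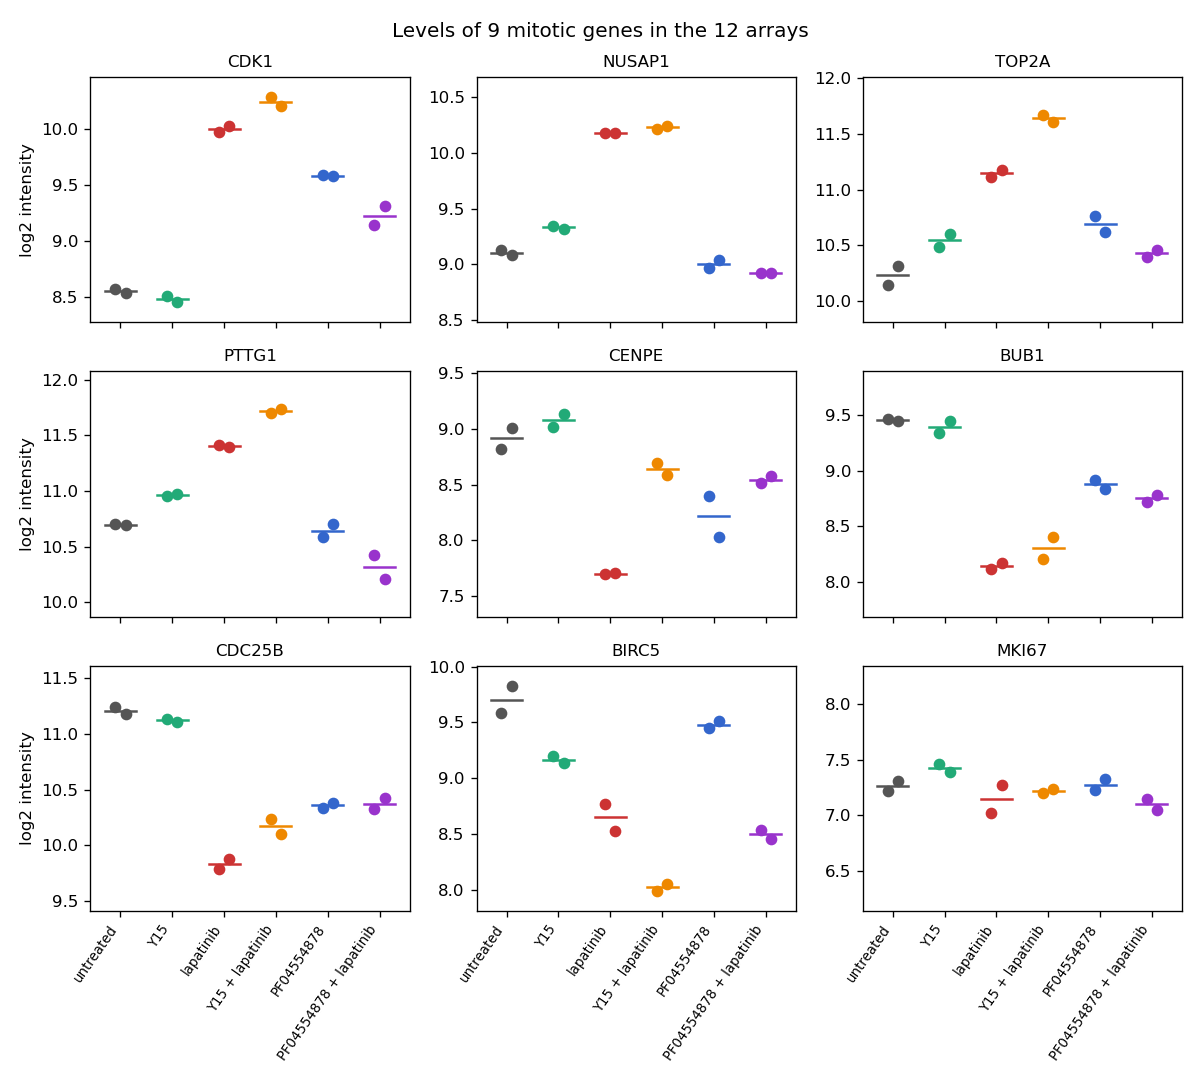
Log2 signal of 9 of the genes on each array (points) with the group mean (bar), 1 panel per gene, each panel spanning the same number of log2 units. CDK1, NUSAP1, TOP2A and PTTG1 are highest on the arrays with lapatinib alone or combined with Y15, and BUB1, CDC25B and BIRC5 are lower there than on the untreated arrays. CENPE is lowest on the 2 arrays with lapatinib alone. MKI67 stays between 7.02 and 7.46, not far above the background cutoff of 6.80.

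The spindle assembly checkpoint was represented by 5 genes, for kinases and their partners. Of these, 1 rose and 3 fell with lapatinib, and 1 rose and 4 fell with PF04554878 plus lapatinib (all genes 27.9% and 28.0% with lapatinib, 23.7% and 22.6% with PF04554878 plus lapatinib). BUB1, the kinase that recruits checkpoint proteins to kinetochores, stood at 9.46 and 9.44 on the untreated arrays, 9.33 and 9.44 under Y15, 8.12 and 8.17 under lapatinib, 8.20 and 8.40 under Y15 plus lapatinib, 8.92 and 8.84 under PF04554878, and 8.72 and 8.78 under PF04554878 plus lapatinib. Its 4 untreated and Y15 arrays were the highest and its 4 arrays with lapatinib alone or combined with Y15 the lowest. BUB1 fell 2.48-fold with lapatinib (log2 change -1.31 ± 0.09, adjusted p = 1.12e-08), with log2 changes of -0.57 ± 0.09 (adjusted p = 0.000118) with PF04554878, -1.15 ± 0.09 (adjusted p = 4.89e-08) with Y15 plus lapatinib and -0.70 ± 0.09 (adjusted p = 1.57e-05) with PF04554878 plus lapatinib. Its paralog BUB1B, which encodes the checkpoint protein BubR1, changed by 0.47 ± 0.11 (adjusted p = 0.0022) with Y15 plus lapatinib. BUB3, which carries BUB1 and BubR1 to the kinetochore, stood at 10.90 and 11.19 on the untreated arrays, 11.04 and 11.10 under Y15, 11.19 and 11.27 under lapatinib, 11.48 and 11.48 under Y15 plus lapatinib, 11.90 and 11.79 under PF04554878, and 11.57 and 11.72 under PF04554878 plus lapatinib. The 4 arrays with PF04554878 were the highest, and they did not overlap the others. It rose with PF04554878 (log2 change 0.80 ± 0.10, adjusted p = 1.31e-05) and with PF04554878 plus lapatinib (log2 change 0.60 ± 0.10, adjusted p = 0.000197). The dimmer BUB3 probes did not all show these rises. With PF04554878 they gave 1.62, -0.25 and 0.12, and with PF04554878 plus lapatinib 1.44, -0.15 and 0.06. Only the first probe passed the test in each. With Y15 plus lapatinib the brightest probe changed by 0.43 and a dimmer one by -0.43, both past the threshold. With lapatinib the brightest did not pass, and dimmer probes passed in opposite directions (0.72 and -0.69). TTK, which encodes the checkpoint kinase MPS1, was lower with lapatinib (log2 change -0.57 ± 0.09, adjusted p = 5.27e-05) and with PF04554878 plus lapatinib (log2 change -0.36 ± 0.09, adjusted p = 0.00323). MAD2L1, the inhibitor that holds CDC20, changed by -0.51 ± 0.11 (adjusted p = 0.00118) with lapatinib.

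Of the 6 kinetochore genes, 0 rose and 2 fell with lapatinib (all genes 27.9% and 28.0%), and 1 rose and 1 fell with Y15 plus lapatinib (all genes 27.4% and 27.1%). For so few genes these falls are near the share over all genes. At an unadjusted p under 0.05, limma gave 1 higher and 4 lower with lapatinib. CENPE, a kinesin that moves chromosomes to the spindle equator, stood at 8.82 and 9.01 on the untreated arrays, 9.02 and 9.14 under Y15, 7.70 and 7.70 under lapatinib, 8.69 and 8.59 under Y15 plus lapatinib, 8.40 and 8.03 under PF04554878, and 8.51 and 8.58 under PF04554878 plus lapatinib. The 2 arrays with lapatinib alone lay below all 10 others. CENPE fell 2.33-fold with lapatinib (log2 change -1.22 ± 0.11, adjusted p = 2.56e-07) and fell with PF04554878 (log2 change -0.70 ± 0.11, adjusted p = 0.000129). Against untreated its log2 change was -0.28 ± 0.11 (adjusted p = 0.051) with Y15 plus lapatinib, which did not pass the test, with a 95% interval of -0.52 to -0.03. CENPF, a large coat protein of the kinetochore, rose with Y15 plus lapatinib (log2 change 0.70 ± 0.11, adjusted p = 8.92e-05). NDC80, which couples kinetochores to microtubules, fell with lapatinib (log2 change -0.48 ± 0.10, adjusted p = 0.000593) and rose with PF04554878 (log2 change 0.37 ± 0.10, adjusted p = 0.00564; adjusted p = 0.0756 without PF04554878 array 1), while its partners NUF2 and SPC25 passed the test against untreated in 0 of the 5 comparisons. CENPA, the centromeric histone, passed it in 0 of the 10 pairwise comparisons.

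Among the mitotic kinases and the chromosomal passenger complex, NEK2 and AURKA were highest with Y15 plus lapatinib and BIRC5 was lowest there. NEK2, a kinase that splits the centrosomes, stood at 8.21 and 8.29 on the untreated arrays, 8.44 and 8.32 under Y15, 8.82 and 8.77 under lapatinib, 9.37 and 9.46 under Y15 plus lapatinib, 8.62 and 8.65 under PF04554878, and 8.31 and 8.46 under PF04554878 plus lapatinib. The 2 arrays with Y15 plus lapatinib lay above all others. NEK2 rose 2.24-fold with Y15 plus lapatinib (log2 change 1.17 ± 0.09, adjusted p = 3.3e-08) and 1.45-fold with lapatinib (log2 change 0.54 ± 0.09, adjusted p = 0.000111). AURKA, the centrosomal Aurora kinase, rose with Y15 plus lapatinib (log2 change 0.67 ± 0.10, adjusted p = 3.76e-05), with PF04554878 (log2 change 0.44 ± 0.10, adjusted p = 0.00223) and with PF04554878 plus lapatinib (log2 change 0.35 ± 0.10, adjusted p = 0.00949; adjusted p = 0.0859 without PF04554878 plus lapatinib array 2 and 0.0703 without untreated array 1). PLK1, the Polo-like kinase of mitotic entry, changed by -0.43 ± 0.12 (adjusted p = 0.00484) with lapatinib and -0.37 ± 0.12 (adjusted p = 0.0159) with PF04554878 plus lapatinib (adjusted p = 0.144 without PF04554878 plus lapatinib array 1 and 0.115 without untreated array 2). BIRC5 encodes survivin, a subunit of the passenger complex that also opposes apoptosis, and stood at 9.58 and 9.83 on the untreated arrays, 9.20 and 9.14 under Y15, 8.77 and 8.53 under lapatinib, 7.99 and 8.05 under Y15 plus lapatinib, 9.45 and 9.51 under PF04554878, and 8.54 and 8.46 under PF04554878 plus lapatinib. Every treated array lay below both untreated arrays, those with PF04554878 alone narrowly, and the 2 arrays with Y15 plus lapatinib were the lowest. BIRC5 fell 3.21-fold with Y15 plus lapatinib (log2 change -1.68 ± 0.10, adjusted p = 2.47e-09), 2.31-fold with PF04554878 plus lapatinib (log2 change -1.21 ± 0.10, adjusted p = 2.06e-07) and 2.08-fold with lapatinib (log2 change -1.06 ± 0.10, adjusted p = 4.55e-07). With PF04554878 alone it changed by -0.23 ± 0.10 (adjusted p = 0.0903), which did not pass. Of the other passenger subunits, CDCA8 (borealin) changed by 0.32 ± 0.09 (adjusted p = 0.00818) with lapatinib (adjusted p = 0.0954 without lapatinib array 2), and AURKB, the kinase of the complex, by 0.06 ± 0.15 (adjusted p = 0.758), which did not pass.

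Among the listed genes of the anaphase-promoting complex and of sister separation, PTTG1, CDC20 and UBE2C rose with lapatinib and ESPL1 fell. Over all genes 27.9% rose and 28.0% fell there. The CDC20 call rested on single arrays and the UBE2C probes disagreed, as given below. PTTG1, which encodes securin, the inhibitor of separase, stood at 10.70 and 10.69 on the untreated arrays, 10.95 and 10.97 under Y15, 11.41 and 11.40 under lapatinib, 11.70 and 11.74 under Y15 plus lapatinib, 10.58 and 10.70 under PF04554878, and 10.43 and 10.21 under PF04554878 plus lapatinib. The 4 arrays with lapatinib alone or combined with Y15 were the highest and the 2 with PF04554878 plus lapatinib the lowest. PTTG1 rose with lapatinib (log2 change 0.70 ± 0.09, adjusted p = 9.45e-06) and with Y15 plus lapatinib (log2 change 1.02 ± 0.09, adjusted p = 1.83e-07), and fell with PF04554878 plus lapatinib (log2 change -0.38 ± 0.09, adjusted p = 0.00319; adjusted p = 0.058 without the second of those arrays). CDC20, the activator that the checkpoint inhibits, stood at 10.23 and 10.13 on the untreated arrays, 10.10 and 10.34 under Y15, 10.69 and 10.45 under lapatinib, 10.76 and 10.67 under Y15 plus lapatinib, 10.97 and 11.07 under PF04554878, and 10.71 and 10.45 under PF04554878 plus lapatinib. Its 2 arrays with PF04554878 alone were the highest. CDC20 rose with PF04554878 (log2 change 0.84 ± 0.12, adjusted p = 2.76e-05), with Y15 plus lapatinib (log2 change 0.53 ± 0.12, adjusted p = 0.00115), with lapatinib (log2 change 0.39 ± 0.12, adjusted p = 0.00984) and with PF04554878 plus lapatinib (log2 change 0.40 ± 0.12, adjusted p = 0.0103). The last pair of calls rests on single arrays: the adjusted p was 0.13 without the first lapatinib array and 0.0505 without the second untreated array for lapatinib, and 0.141 without the first array of PF04554878 plus lapatinib and 0.0513 without the second untreated array for that combination. UBE2C, the ubiquitin-conjugating enzyme of the complex, changed by 0.34 ± 0.09 (adjusted p = 0.00462) with lapatinib and -0.67 ± 0.09 (adjusted p = 1.94e-05) with PF04554878 plus lapatinib, but its dimmer probe changed by -0.39 with lapatinib (adjusted p = 0.00292), so its probes give opposite directions with lapatinib. ESPL1, which encodes separase, changed by -0.39 ± 0.09 (adjusted p = 0.00223) with lapatinib, -0.81 ± 0.09 (adjusted p = 3.77e-06) with PF04554878 and -0.81 ± 0.09 (adjusted p = 3.53e-06) with PF04554878 plus lapatinib.

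Of the 9 spindle and kinesin genes, 5 rose and 0 fell with lapatinib (all genes 27.9% and 28.0%), 6 rose and 0 fell with Y15 plus lapatinib (all genes 27.4% and 27.1%), and 1 rose and 4 fell with PF04554878 plus lapatinib (all genes 23.7% and 22.6%). At an unadjusted p under 0.05, limma gave 0 and 0 lower in the first and second of these. NUSAP1, which bundles spindle microtubules around chromosomes, stood at 9.13 and 9.09 on the untreated arrays, 9.34 and 9.32 under Y15, 10.18 and 10.18 under lapatinib, 10.22 and 10.24 under Y15 plus lapatinib, 8.97 and 9.04 under PF04554878, and 8.92 and 8.92 under PF04554878 plus lapatinib. The 4 arrays with lapatinib alone or combined with Y15 lay above all others. NUSAP1 rose 2.1-fold with lapatinib (log2 change 1.07 ± 0.08, adjusted p = 2.44e-08), and with PF04554878 plus lapatinib its change was -0.19 ± 0.08 (adjusted p = 0.0756), which did not pass. HMMR, a spindle assembly protein and hyaluronan receptor, stood at 9.01 and 9.27 on the untreated arrays, 9.20 and 9.30 under Y15, 9.58 and 9.67 under lapatinib, 10.44 and 10.24 under Y15 plus lapatinib, 9.12 and 8.92 under PF04554878, and 8.98 and 9.24 under PF04554878 plus lapatinib. Its 2 arrays with Y15 plus lapatinib were the highest, and it rose 2.3-fold there (log2 change 1.20 ± 0.12, adjusted p = 5.46e-07). KIF11, the motor that pushes spindle poles apart, rose with lapatinib (log2 change 0.71 ± 0.09, adjusted p = 1.02e-05) and with Y15 plus lapatinib (log2 change 0.97 ± 0.09, adjusted p = 4.03e-07). KIF2C, which shortens microtubules at kinetochores, rose with PF04554878 (log2 change 0.76 ± 0.10, adjusted p = 1.79e-05), lapatinib (log2 change 0.42 ± 0.10, adjusted p = 0.00221), Y15 plus lapatinib (log2 change 0.75 ± 0.10, adjusted p = 1.26e-05) and PF04554878 plus lapatinib (log2 change 0.58 ± 0.10, adjusted p = 0.000233). The central spindle motors KIF20A and KIF23 changed by -0.46 ± 0.11 (adjusted p = 0.00324) and -0.60 ± 0.14 (adjusted p = 0.00242) with PF04554878 (KIF23 adjusted p = 0.0514 without PF04554878 array 2). PRC1, which bundles the central spindle, changed by 0.59 ± 0.10 (adjusted p = 0.000153) with Y15 plus lapatinib. DLGAP5, which stabilises spindle microtubules, changed by -0.26 ± 0.10 (adjusted p = 0.0397) with PF04554878 plus lapatinib (adjusted p = 0.11 without PF04554878 plus lapatinib array 1, 0.127 without PF04554878 plus lapatinib array 2 and 0.135 without untreated array 1). TPX2, which activates AURKA on the spindle, changed by -0.63 ± 0.13 (adjusted p = 0.00108) with PF04554878 and -0.71 ± 0.13 (adjusted p = 0.00039) with PF04554878 plus lapatinib.

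**Figure D4:**
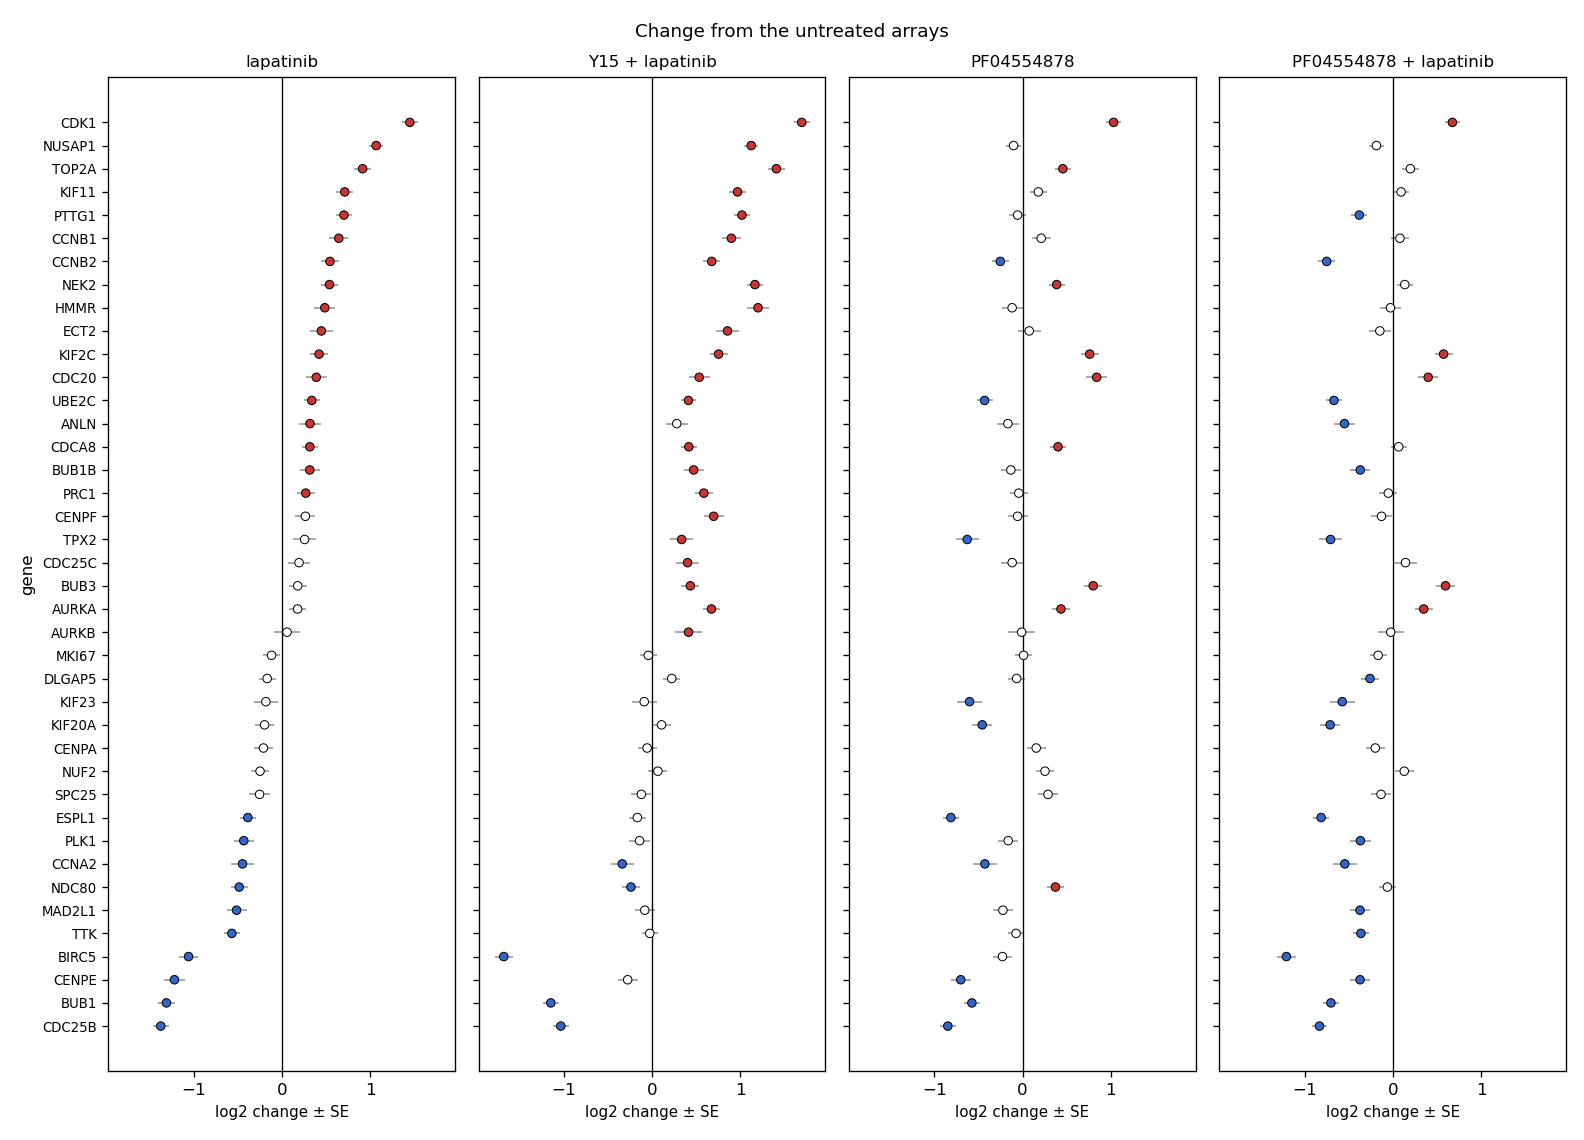
Log2 change against the 2 untreated arrays (point) with its standard error (bar) for the 40 genes in 4 comparisons, n = 2 arrays per group. Filled red points rose and filled blue points fell past the threshold, and white points did not pass: rises outnumber falls with lapatinib (17 and 10) and with Y15 plus lapatinib (22 and 5), and falls outnumber rises with PF04554878 plus lapatinib (18 and 5).

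Both cytokinesis genes rose with lapatinib, each with a call that single arrays decided. ECT2, which starts the contractile ring, changed by 0.45 ± 0.13 (adjusted p = 0.0075), with adjusted p = 0.119 without lapatinib array 2. ANLN, a scaffold of that ring, changed by 0.32 ± 0.12 (adjusted p = 0.0391), with adjusted p = 0.0567 without lapatinib array 1, 0.209 without lapatinib array 2 and 0.174 without untreated array 2. With PF04554878 plus lapatinib ANLN fell (log2 change -0.55 ± 0.12, adjusted p = 0.0019). TOP2A, the topoisomerase that untangles chromosomes, stood at 10.15 and 10.32 on the untreated arrays, 10.49 and 10.60 under Y15, 11.12 and 11.18 under lapatinib, 11.67 and 11.61 under Y15 plus lapatinib, 10.76 and 10.62 under PF04554878, and 10.40 and 10.46 under PF04554878 plus lapatinib. All arrays with lapatinib or Y15 or PF04554878 lay above the untreated arrays, and the 2 with Y15 plus lapatinib were the highest. TOP2A rose 1.89-fold with lapatinib (log2 change 0.92 ± 0.09, adjusted p = 6.88e-07) and 2.65-fold with Y15 plus lapatinib (log2 change 1.41 ± 0.09, adjusted p = 5.77e-09). MKI67, the common pathology marker of proliferation, stood at 7.22 and 7.31 on the untreated arrays, 7.46 and 7.39 under Y15, 7.02 and 7.27 under lapatinib, 7.20 and 7.24 under Y15 plus lapatinib, 7.22 and 7.33 under PF04554878, and 7.14 and 7.05 under PF04554878 plus lapatinib. The 12 values spanned 7.02 to 7.46, and it passed the test in 0 of the 10 pairwise comparisons. Its change was -0.12 ± 0.10 with lapatinib (95% interval -0.32 to 0.09) and -0.04 ± 0.10 with Y15 plus lapatinib (95% interval -0.25 to 0.16). These values lie not far above the background cutoff of 6.80, where probes understate changes. They therefore do not show that MKI67 RNA was stable.

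Adding Y15 to lapatinib, a comparison inside one set of arrays, gave small rises in many of the 40 genes. Of the 40 values, 38 were above 0. They were read from the same arrays and are not independent, and the share of all genes above 0 is not given here. Past the threshold, 12 of the 40 rose and 1 fell (median 0.25), against 6.04% and 5.25% of all genes. The count rests on the arrays used: in all it was 6 without the first lapatinib array, 7 without the second, 7 without the array numbered 1 of the combination and 9 without the one numbered 3. CENPE rose most, by 0.94 ± 0.11 (adjusted p = 0.000305) or 1.92-fold, from 7.70 on both lapatinib arrays to 8.69 and 8.59. HMMR rose by 0.71 ± 0.12 (adjusted p = 0.00211). TTK rose by 0.54 ± 0.09 (adjusted p = 0.00175). NEK2 rose by 0.62 ± 0.09 (adjusted p = 0.000852), and its second probe did not pass (adjusted p = 0.391). BIRC5 was the 1 gene that fell, with a log2 change of -0.63 ± 0.10 (adjusted p = 0.00196), and its dimmer probe gave -0.20 (adjusted p = 0.237).

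Adding lapatinib to PF04554878, also inside one set, gave small falls. Of the 40 values, 35 were below 0. These too were read from the same arrays and are not independent, and the share of all genes below 0 is not given here. Past the threshold, 0 of the 40 genes rose and 8 fell (median -0.19), against 4.10% and 4.78% of all genes. At an unadjusted p under 0.05, limma gave 1 higher and 15 lower. Without the first PF04554878 array 1 gene rose and 1 fell. The number that fell was 4 without the second PF04554878 array, 4 without the first array of the combination and 3 without the second, and 0 rose in each. BIRC5 fell most, with a log2 change of -0.98 ± 0.10 (adjusted p = 2.51e-05), from 9.45 and 9.51 to 8.54 and 8.46, and it passed the test with any of the 4 arrays left out. CCNB2 changed by -0.50 ± 0.10 (adjusted p = 0.00414), with an adjusted p of 0.0524 without the first PF04554878 array. CDC20 changed by -0.44 ± 0.12 (adjusted p = 0.0277) and NDC80 by -0.43 ± 0.10 (adjusted p = 0.0112). The first lost the call without either PF04554878 array (adjusted p = 0.0787 and 0.156) or without the second combination array (0.279), and the second without the first PF04554878 array (0.128) or either combination array (0.0873 and 0.0559). The other 4 that fell were CDK1, PTTG1, SPC25 and CDCA8. CDK1 changed by -0.36 ± 0.09 (adjusted p = 0.0196), with adjusted p = 0.0993 without PF04554878 array 1, 0.0889 without PF04554878 array 2 and 0.177 without PF04554878 plus lapatinib array 1.

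Y15 against untreated is the third comparison inside a set. BIRC5 was the 1 gene of the 40 that passed the test, at 9.20 and 9.14 with Y15 against 9.58 and 9.83 untreated (log2 change -0.54 ± 0.10, adjusted p = 0.00854). The call was lost without the first Y15 array (adjusted p = 0.0571) and without the second (0.0939), and its dimmer probe gave -0.28 (adjusted p = 0.128). The count was 3 without the second untreated array. The largest values above 0 were those of TOP2A (0.31 ± 0.09, adjusted p = 0.0676, 95% interval 0.11 to 0.51) and AURKA (0.27 ± 0.10, adjusted p = 0.126), and neither passed. BIRC5 thus fell in all 3 comparisons inside a set, which share no array. Of all 11564 genes, 45 (0.389%) fell and 32 (0.277%) rose in all 3.

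**Figure D5:**
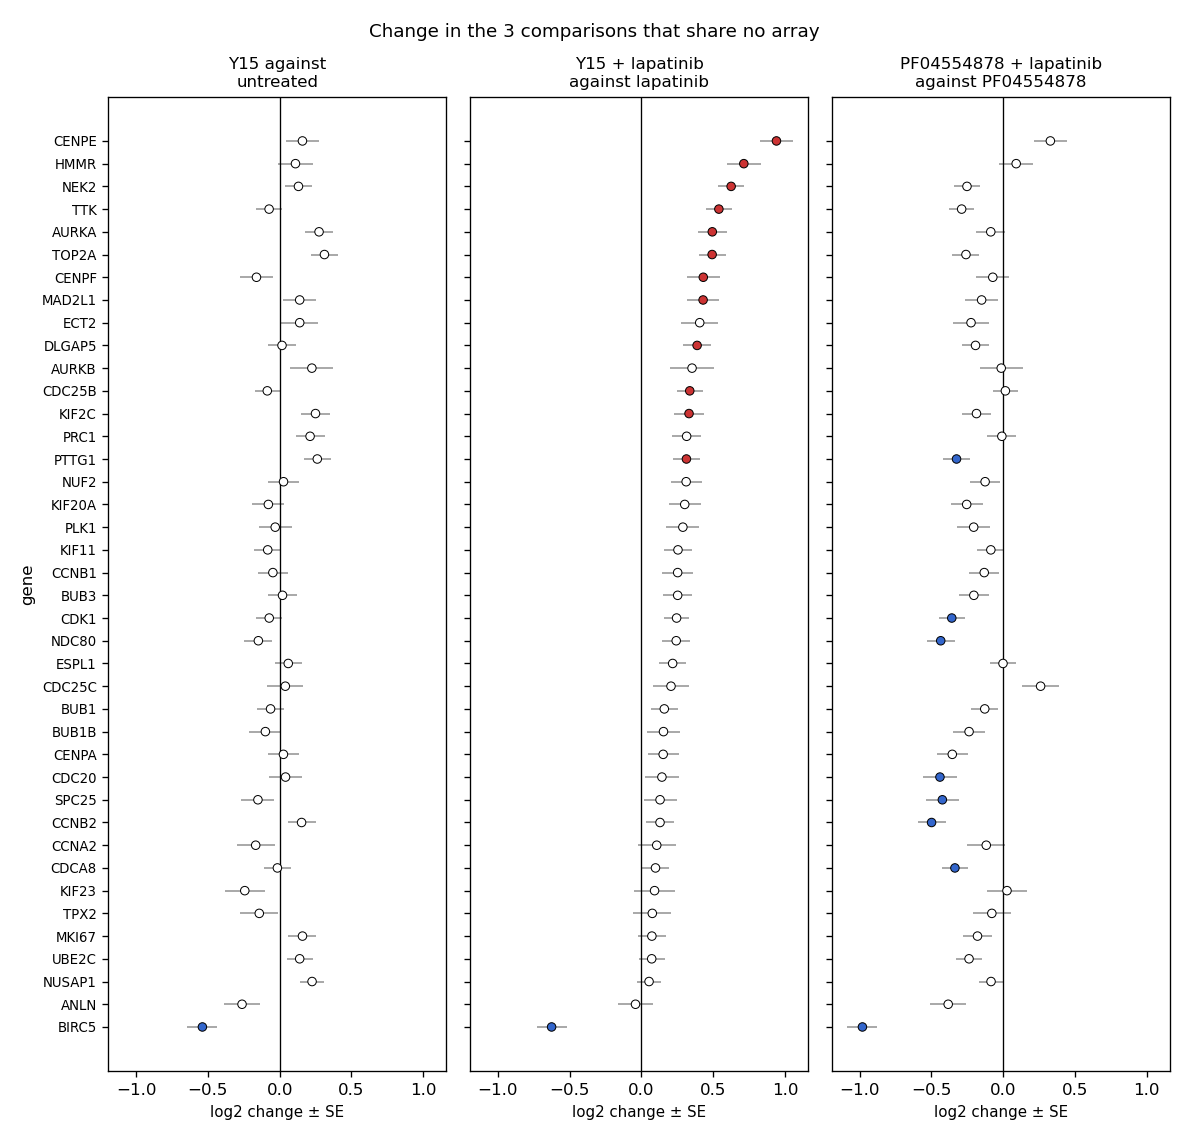
Log2 change (point) and standard error (bar) of the 40 genes in the 3 comparisons that share no array, n = 2 arrays per group, with filled points past the threshold. With Y15 added to lapatinib 38 of 40 points lie above 0, with lapatinib added to PF04554878 35 of 40 lie below 0, and BIRC5 is below 0 and past the threshold in each. The points of a panel were read from the same arrays and are not independent.

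The FAK inhibitors were given at the same dose and time, so their arrays can be set against each other directly, within the limit that they lie in different sets. Of the 40 genes, 10 were higher and 12 lower with PF04554878 than with Y15 (median -0.07), against 24.5% and 22.9% of all genes, which is near the background. CDK1 was 2.15-fold higher with PF04554878 (log2 change 1.11 ± 0.09, adjusted p = 9.24e-08). CDC20 differed by 0.80 ± 0.12 (adjusted p = 4.17e-05), BUB3 by 0.78 ± 0.10 (adjusted p = 1.58e-05) and NDC80 by 0.52 ± 0.10 (adjusted p = 0.000421). Separase ESPL1 was 1.83-fold lower (log2 change -0.87 ± 0.09, adjusted p = 1.68e-06), and CENPE differed by -0.86 ± 0.11 (adjusted p = 1.72e-05), CDC25B by -0.76 ± 0.09 (adjusted p = 4.69e-06) and UBE2C by -0.57 ± 0.09 (adjusted p = 9.07e-05). Among the genes that did not pass, AURKA differed by 0.16 ± 0.10 (95% interval -0.05 to 0.38) and TTK by 0.00 ± 0.09 (-0.19 to 0.19). The AURKA interval leaves room for a moderate rise, and the TTK interval only for a small change either way. The same 2 compounds added to lapatinib gave opposite balances against lapatinib alone, whose 2 arrays both comparisons share. With PF04554878 plus lapatinib 6 rose and 20 fell (median -0.20; all genes 29.0% and 28.2%), and with Y15 plus lapatinib 12 rose and 1 fell, as above. The largest falls with PF04554878 were in CCNB2 (log2 change -1.30 ± 0.10, adjusted p = 1.91e-08), NUSAP1 (log2 change -1.26 ± 0.08, adjusted p = 3.67e-09), PTTG1 (log2 change -1.08 ± 0.09, adjusted p = 8.04e-08) and UBE2C (log2 change -1.01 ± 0.09, adjusted p = 1.35e-07), of which UBE2C did not pass on its dimmer probe (adjusted p = 0.121). The largest rises were in CENPE (log2 change 0.85 ± 0.11, adjusted p = 1.18e-05), BUB1 (log2 change 0.61 ± 0.09, adjusted p = 4.15e-05), CDC25B (log2 change 0.54 ± 0.09, adjusted p = 8.52e-05) and NDC80 (log2 change 0.42 ± 0.10, adjusted p = 0.00168). These genes are among those lower with lapatinib alone than untreated. Both comparisons use the same 2 lapatinib arrays with opposite sign, so low values there give both results. The overlap is therefore not a separate observation.

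Each combination was also set against its FAK inhibitor alone, as the change with lapatinib added. This comparison is between sets for Y15 and inside one set for PF04554878. On a Y15 background, 22 of the 40 rose and 5 fell (median 0.37; all genes 26.8% and 27.5%), with CDK1 3.41-fold higher (log2 change 1.77 ± 0.09, adjusted p = 2.19e-10). TOP2A, HMMR and KIF11 changed by 1.10 ± 0.09, 1.09 ± 0.12 and 1.05 ± 0.09. BIRC5, BUB1 and CDC25B changed by -1.15 ± 0.10, -1.09 ± 0.09 and -0.95 ± 0.09, each past the threshold. CENPE changed by -0.44 ± 0.11 (adjusted p = 0.00437), and its second probe did not pass (adjusted p = 0.142). On a PF04554878 background lapatinib gave the 0 rises and 8 falls described above. Whether the effect of lapatinib differed by FAK inhibitor was tested as an interaction, the combination minus each drug alone plus untreated. For PF04554878, 4 of the 40 had a positive and 16 a negative interaction past the threshold (median -0.27; all genes 22.1% and 22.9%). CDK1 had the largest, -1.81 ± 0.13 (adjusted p = 2e-08): lapatinib changed it by 1.45 without PF04554878 and by -0.36 with it, the latter not past the threshold without PF04554878 array 1 or 2 or PF04554878 plus lapatinib array 1, as given above. TOP2A (log2 change -1.18 ± 0.13, adjusted p = 3.7e-06), NUSAP1 (log2 change -1.15 ± 0.12, adjusted p = 1.04e-06) and CCNB2 (log2 change -1.04 ± 0.14, adjusted p = 1.79e-05) followed, and CENPE (log2 change 1.55 ± 0.16, adjusted p = 1.66e-06), CDC25B (log2 change 1.39 ± 0.13, adjusted p = 3.66e-07) and BUB1 (log2 change 1.18 ± 0.13, adjusted p = 3.12e-06) had the largest positive values. For Y15, 3 had a positive and 0 a negative interaction (median 0.24; all genes 1.63% and 2.23%), with 11 positive and 0 negative at an unadjusted p under 0.05 in limma. These were CENPE (log2 change 0.78 ± 0.16, adjusted p = 0.0197), TTK (log2 change 0.61 ± 0.12, adjusted p = 0.0189) and NEK2 (log2 change 0.49 ± 0.13, adjusted p = 0.0461). For CENPE the adjusted p rose to between 0.0521 and 0.104 without either lapatinib array, either Y15 array or Y15 plus lapatinib array 1, and for TTK to between 0.0523 and 0.0981 without the same arrays other than Y15 array 2. For NEK2 it was 0.0664 to 0.155 without any array but untreated array 1. The count of positive interactions was 0 to 5 with 1 array left out: 0 without either lapatinib array, the first Y15 array or the array numbered 1 of Y15 plus lapatinib, 1 without the second Y15 array and 5 without the first untreated array.

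Other mitotic genes, in 4 further lists of regulators, kinetochore and centromere proteins, spindle and cytokinesis proteins, and condensin and cohesin, were described in the same way. Of 106 tested, 27 rose and 39 fell with lapatinib (median -0.12; all genes 27.9% and 28.0%). The share of rises was near that of all genes, and the share of falls was larger than that of all genes. The mitotic genes described above leaned the other way with lapatinib, with a larger share of rises than over all genes. Their excess of rises there was thus not shared by these further lists. ZWINT and ZW10, which bring checkpoint proteins to the kinetochore, changed by 1.58 ± 0.11 and 1.54 ± 0.09, and CKS2, a small CDK partner, by 0.92 ± 0.13. HAUS1, a subunit of the augmin complex, changed by -1.81 ± 0.12, the cohesin subunit STAG2 by -1.49 ± 0.13 and PLK4, the kinase of centriole duplication, by -0.96 ± 0.11. With Y15 plus lapatinib 32 rose and 30 fell (median 0.05; all genes 27.4% and 27.1%), and with PF04554878 alone 22 rose and 26 fell (median -0.08; all genes 23.7% and 21.6%), all near the shares over all genes. With PF04554878 plus lapatinib 14 rose and 47 fell (median -0.21; all genes 23.7% and 22.6%), among them SKA1, which couples kinetochores to microtubules (-1.58 ± 0.11), and the condensin subunit NCAPG2 (-1.22 ± 0.15). These 4 comparisons share the untreated arrays.

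Inside the sets, rises outnumbered falls among the other mitotic genes when Y15 was added to lapatinib, and falls outnumbered rises when lapatinib was added to PF04554878. Adding Y15 to lapatinib gave 17 rises and 2 falls of 106 (median 0.17; all genes 6.04% and 5.25%). KIF20B, a kinesin of cytokinesis, rose by 1.00 ± 0.11 (adjusted p = 0.000125) and ASPM, a spindle pole protein, by 0.69 ± 0.12 (adjusted p = 0.00229). The condensin subunit SMC4 rose by 0.72 ± 0.13 (adjusted p = 0.00285), and without the first lapatinib array its adjusted p was 0.0537. Adding lapatinib to PF04554878 gave 0 rises and 10 falls (median -0.12; all genes 4.10% and 4.78%), with 3 higher and 32 lower at an unadjusted p under 0.05 in limma. OIP5, which loads CENPA at centromeres, changed by -0.997 ± 0.10 (adjusted p = 1.26e-05) and CEP55, which recruits the machinery that cuts the cytokinetic bridge, by -0.92 ± 0.11 (adjusted p = 7.2e-05). Y15 against untreated gave 4 rises and 2 falls (all genes 2.94% and 2.50%). CEP55 changed there by -0.62 ± 0.11 (adjusted p = 0.00488), with an adjusted p of 0.0683 without the first Y15 array.

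The values depend on which probe is read. Of the 40 genes, 22 had 1 probe above background and 18 had others, 21 in all. Over the 10 pairwise comparisons there were 100 pairings of a called value with another probe of the same gene. Of these, 86 had the same sign, 58 also passed the test in that direction and 2, in UBE2C and BUB3, passed it in the opposite direction. In the PF04554878 interaction the brightest BUB3 probe gave -0.38 ± 0.15 (adjusted p = 0.0427) and a dimmer one 0.79 ± 0.20 (adjusted p = 0.00422). The dimmer BIRC5 probe had group means of 7.42 untreated, 7.14 under Y15, 7.05 under lapatinib, 7.20 under PF04554878, 6.85 under Y15 plus lapatinib and 6.81 under PF04554878 plus lapatinib, and was above background on 11 of 12 arrays. It too was highest on the untreated arrays, and its differences between groups were smaller than those of the bright probe.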

How the data were processed

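Illumina expression arrays measured RNA from 12 samples labelled SKBR-3, in 6 groups of 2. The log2 values used are the authors' deposited series matrix, made with GenomeStudio per the submitters' processing notes. Their sorted columns differ by at most 0.0146, so they had already been normalized between arrays, by a method not given in the sources used here. A deposited raw table has 24 columns that no label ties to a sample, and it was not used. Nothing was normalized again. Of 47318 probes, 30111 carry 1 gene symbol, 8 several and 17199 none.

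The background was the mode of all values (6.55) and its spread (SD 0.0827) set a cutoff at mode plus 3 SD (6.80). Probes above it on at least 2 arrays were kept (19922), and the brightest probe stood for a gene (11564 genes). The number of arrays limits the precision. On each array 34.4% of probes passed the cutoff. Levels of different probes are not compared.

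Groups were compared with limma 3.58.1 in R 4.3.3 (lmFit, eBayes), 1 mean per group over all 12 arrays, with p-values adjusted by Benjamini-Hochberg over all genes tested, 10 pairwise contrasts and 2 interactions, and a threshold of 0.05. "Rose" and "fell" are used for values past it. Errors are limma standard errors with n = 2 arrays per group. The fit was tested on simulated data.

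The 40 genes and the other lists (4 of mitotic genes, and DNA replication, DREAM with MuvB and RB, and CDK inhibitors with G1 cyclins) were chosen with earlier results of these data known. For each comparison the 4 genes of the 40 with the largest rise and fall past the threshold are given in full, other members with levels or changes, and up to 3 genes per direction of each other list. The alternatives were no probe filter, probes above background on all arrays, every probe, the second brightest probe, only the groups compared, subtracting the background mode, the replicate number as a block, and leaving out each array.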

Additional observations from a re-analysis of the deposited data

Results flagged for a closer look

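The effect of lapatinib was tested for a difference with and without PF04554878. The interaction passed limma's threshold for 20 of the 40 genes, 4 positive and 16 negative, against 22.1% and 22.9% of all genes, so the total is near the background and the negative share is above it. The interaction values (log2) were 1.55 for CENPE, 1.39 for CDC25B, 1.18 for BUB1 and 0.38 for ESPL1 on the positive side, and -1.81 for CDK1, -1.18 for TOP2A, -1.15 for NUSAP1 and -1.04 for CCNB2 on the negative side. ESPL1 (adjusted p = 0.0255) lost the call without the first lapatinib array (0.0755), the first PF04554878 array (0.0771) or the first array of the combination (0.0686). With Y15 the interaction passed for 3 of the 40, all positive, against 1.63% and 2.23% of all genes: 0.78 for CENPE, 0.61 for TTK and 0.49 for NEK2. The first of these interactions compares groups of all 3 sets of arrays, so drug and set cannot be told apart in it.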

How the results depend on the processing

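Of 216 values of the 40 genes past the threshold, 140 stayed past it with the same sign under every alternative run for them, and 8 changed sign under 1. Of 80 counts of the 40 genes under the alternatives that keep all arrays, 76 stayed within 1.5 times the reported count. The exceptions were 3 for PF04554878 plus lapatinib against PF04554878 and 7 for Y15 plus lapatinib against lapatinib, both with the background mode subtracted, and 0 for Y15 against untreated with only the groups compared or with the second brightest probe (at an unadjusted p under 0.05, limma gave 5 and 8 genes). With 1 array left out, the counts ranged from 2 to 4 for PF04554878 plus lapatinib against PF04554878, 6 to 9 for Y15 plus lapatinib against lapatinib, 0 to 3 for Y15 against untreated, 0 to 5 for the Y15 interaction, 18 to 25 for the PF04554878 interaction, and 21 to 30, 23 to 25, 17 to 20 and 17 to 21 for lapatinib, Y15 plus lapatinib, PF04554878 plus lapatinib and PF04554878 against untreated. AURKB with PF04554878 against untreated was -0.01, and it ranged from -0.34 without the second PF04554878 array to 0.32 without the first. On the second brightest probe, CDC25C was -0.56 with PF04554878 plus lapatinib against untreated and -0.23 with Y15 plus lapatinib against Y15, NEK2 was -0.052 and CDKN1A -0.14 with PF04554878 against untreated, and PTTG1 was -0.032 with Y15 plus lapatinib against lapatinib. SPC25 was 0.032 for PF04554878 plus lapatinib against PF04554878 and -0.11 for PF04554878 against Y15. UBE2C was -0.39 with lapatinib, -0.22 with Y15 plus lapatinib and 0.33 in the PF04554878 interaction. The cause of these changes was not tested. Replicate numbers did not pair the arrays: over 10 pairs of groups the correlation of same-numbered deviations was -0.33 to 0.13, and 1 was over 0.1. With the replicate number as a block, 139 of 146 values past the threshold stayed past it, and the counts were 27 for lapatinib, 22 for PF04554878 plus lapatinib and 18 for PF04554878 against untreated. No block was fitted with Y15 plus lapatinib, whose arrays are numbered 1 and 3. Background correction from the raw table was not run, since its columns are not tied to samples. Groups of 2 arrays limit all of these tests, and probes near background understate changes.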

Other observations

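DNA replication genes are described by the same counts. Of 34 tested, 10 rose and 6 fell with lapatinib, 8 and 12 with PF04554878, 12 and 2 with Y15 plus lapatinib, and 7 and 17 with PF04554878 plus lapatinib, against the shared untreated arrays. Over all genes 27.9% and 28.0% rose and fell with lapatinib, 23.7% and 21.6% with PF04554878, 27.4% and 27.1% with Y15 plus lapatinib and 23.7% and 22.6% with PF04554878 plus lapatinib. The rises with lapatinib are thus near the background. Falls were a smaller share than over all genes with lapatinib and with Y15 plus lapatinib. They were a larger share with PF04554878, alone or with lapatinib. RFC4, a subunit of the clamp loader, changed by 1.16 ± 0.09 with lapatinib and -1.44 ± 0.09 with PF04554878 plus lapatinib. MCM7, a subunit of the replicative helicase, changed by -1.17 ± 0.10 and -1.10 ± 0.10. Inside the sets, 5 rose and 1 fell when Y15 was added to lapatinib (all genes 6.04% and 5.25%), and 0 rose and 5 fell when lapatinib was added to PF04554878 (limma; all genes 4.10% and 4.78%; 0 and 14 at an unadjusted p under 0.05).

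Among genes that control the start of the cycle, TFDP1, the E2F partner, changed by 1.77 ± 0.13 and CDKN2A, which encodes the inhibitors p16 and ARF, by 1.72 ± 0.09 with lapatinib. CCND1, cyclin D1, changed by -1.37 ± 0.09 for lapatinib, 0.72 ± 0.09 for PF04554878 and 1.05 ± 0.09 for their combination. CDKN1A, the p21 inhibitor, changed by -1.14 ± 0.19, 1.27 ± 0.19 and 1.88 ± 0.19 in the same order, but none of these passed on its second probe. Of the 17 DREAM, MuvB and RB genes, 4 rose and 3 fell with lapatinib, and of the 12 CDK inhibitors and G1 cyclins, 4 rose and 5 fell, against 27.9% and 28.0% of all genes, which in numbers this small is near the background. RBL2, which encodes p130, the pocket protein of DREAM, changed by -0.59 ± 0.11 (adjusted p = 0.00597) with Y15 and -0.53 ± 0.11 (adjusted p = 0.00646) when Y15 was added to lapatinib. The first of these lost the call without the second Y15 array (adjusted p = 0.0834) and the second without the second lapatinib array (0.0746).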
